A study of Triticum dicoccoides with 12 samples.

Results

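CAT1 encodes catalase and SAHH encodes S-adenosylhomocysteine hydrolase, and both were followed in leaf-like organs of wild emmer wheat under good watering and under terminal drought. Both genes were chosen by name, with earlier results of these data known. Every probe set that the array's annotation pairs with either was taken. CAT1 (Entrez gene 543190) and SAHH (Entrez gene 543491) have 2 probe sets each. The first and second of CAT1 both have names ending in _at, and those of SAHH end in _a_at and _x_at. They are 4 of the 61115 probe sets that are neither controls nor reporters, and 2 of the 771 annotated genes. The samples came from Triticum dicoccoides, a tetraploid wild relative of cultivated wheat, as a drought-resistant genotype (R, Y12-3) or a drought-susceptible genotype (S, A24-39). Each was well-watered or under terminal drought, which made 4 groups of 3 samples. All plants were 10 weeks old, in reproductive growth, and grown in sand and peat. The tissue was phyllome, meaning leaves and leaf-like organs. Each genotype is 1 line, and the labels do not tell separate plants from repeat samples within a group. The p-values therefore cover only the variation among the 3 samples, part of which may be technical. Signals are MAS5 intensities on a linear scale, 1 array per sample.

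Catalase splits hydrogen peroxide into water and oxygen. In leaves it works mainly in peroxisomes, where photorespiration releases hydrogen peroxide when glycolate is oxidised. S-adenosylhomocysteine hydrolase belongs to the methyl cycle: each methyl transfer from S-adenosylmethionine leaves S-adenosylhomocysteine, which inhibits methyltransferases, and the enzyme cleaves it to adenosine and homocysteine. The other genes of these pathways could not be set beside them. Lists of 11 symbols for removal of hydrogen peroxide and oxygen radicals, 10 for the methyl cycle and 9 for photorespiration matched 0 further annotated genes.

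The labelled tissue was checked against 9 leaf marker symbols, of which 3 matched an annotated gene. Of these, petC, the Rieske protein of the cytochrome b6f complex, read between 10878 and 68748. FBP, fructose-1,6-bisphosphatase, read 471.68 to 16057, and GAPN, a glyceraldehyde-3-phosphate dehydrogenase, 223.83 to 12915. The 6 grain symbols matched no annotated gene, and the 3 thionin genes did not exceed 229.54 on any array. Only 13 genes have a symbol in the annotation, so markers without a match may still have unnamed probe sets. Across the 12 arrays the median signal ranged from 58.6 to 151.5, and arrays of 1 group correlated with Pearson's r of 0.876 to 0.939 over probe sets. The log2 ratio of the 3' to the 5' control probe set of sucrose synthase averaged 4.29 and 3.55 in R and 5.03 and 4.70 in S (watered then drought). For glucose-6-phosphate dehydrogenase the means were 1.82, 1.68, 1.83 and 2.04, and for ubiquitin −1.99, −2.06, −1.92 and −2.05, in the same order. Array 3 of well-watered R stood apart, with 33042 probe sets above 129, the 95th percentile of probe sets that target no wheat transcript.

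The first CAT1 probe set was among the brightest on every array. Its signal was 36107, 48660 and 33195 in well-watered R and 19936, 29673 and 27555 in R under drought. In S it was 65969, 62039 and 62398 with water and 32834, 40809 and 29067 under drought. Every drought array lay below every well-watered array of the same genotype, and well-watered S lay above well-watered R without overlap. The group means were 39321 ± 8218, 25721 ± 5121, 63469 ± 2173 and 34237 ± 5995 (SD, n = 3), for R watered, R drought, S watered and S drought. From highest to lowest the order was therefore watered S, watered R, drought S and drought R. In that order the arrays of watered R and drought S overlapped, and so did those of drought S and drought R. Watered S varied least, with an SD of 2173.

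SAHH separated the water regimes across both genotypes. Its first probe set read 69949, 36997 and 46220 in well-watered R and 24149, 28164 and 25258 in R under drought. In S the signals were 54165, 38569 and 48774 with water and 17781, 27891 and 22395 under drought. All 6 drought arrays, at 17781 to 28164, lay below all 6 well-watered arrays, at 36997 to 69949. The second SAHH probe set had the same layout, with 8810.3 to 15484 under drought against 16856 to 47228 with water. Such a separation of all drought from all watered arrays was found in 11.2% of the 38398 tested probe sets. CAT1 did not have it, since watered R reached down to 33195 and drought S up to 40809.

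Individual values of the second SAHH probe set were 47228, 16856 and 25245 in well-watered R, 15484, 14673 and 13646 in R under drought, 21664, 19244 and 27897 in well-watered S, and 8810.3, 14362 and 11451 in S under drought. The genotypes overlapped in both regimes for both SAHH probe sets. Means for the first were 51055 ± 16999.8 and 25857 ± 2073 in R, and 47169 ± 7921 and 22689 ± 5061 in S (SD, n = 3, watered then drought). Well-watered R had the widest spread, and its array 1 gave the highest SAHH signal with both probe sets. The suffixes of the SAHH names state how the probes were chosen: a marks probes shared by transcripts of 1 gene, and x marks a set in which some probes may also match other transcripts.

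The second CAT1 probe set was dim and gave a different picture. Its signal was 257.66, 325.82 and 453.41 in well-watered R, 104.04, 157.71 and 92.468 in R under drought, 74.549, 235.05 and 211 in well-watered S, and 150.92, 239.27 and 56.409 in S under drought. It exceeded the control level of 129 on 8 of the 12 arrays, namely 3, 1, 2 and 2 of the 3 arrays in these groups. In R the drought arrays lay below the watered arrays, whereas in S they overlapped. Well-watered R lay above well-watered S without overlap, which is the opposite order from the first probe set. Over the 12 arrays the 2 CAT1 probe sets correlated with Pearson's r of 0.26 on the log2 scale, against 0.95 for the 2 SAHH probe sets. After the group means were subtracted, r was 0.29 for CAT1 and 0.90 for SAHH. These correlations describe points that share arrays and their scaling. Because the probe sets disagree, statements on CAT1 name the probe set.

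**Figure D1:**
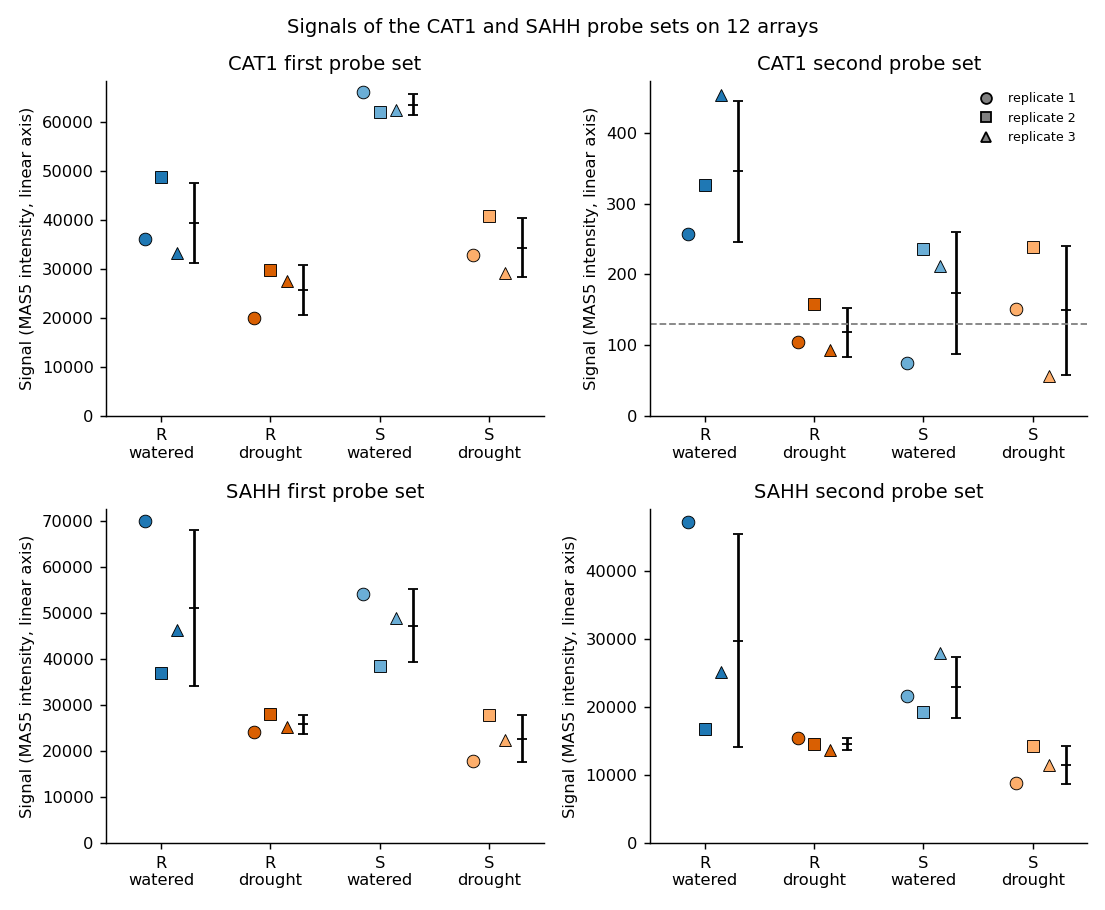
Signal of each probe set (MAS5 intensity, linear axis from 0) on each of the 12 arrays by group, with symbols for replicates and the mean ± SD of each group (n = 3) beside them; the dashed line for the second CAT1 probe set is the control level of 129. The first CAT1 probe set is highest in watered S, and for both SAHH probe sets all 6 drought arrays lie below all 6 watered arrays.

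Signals of the 3 bright probe sets were lower under terminal drought in both genotypes. For the first CAT1 probe set the watered mean was 1.53 times the drought mean in R and 1.85 times in S. The ratios were 1.97 and 2.08 for the first SAHH probe set and 2.04 and 1.99 for the second. A lower signal in bulk tissue cannot be told apart from a smaller share of the cells that hold the transcript.

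On the scale of log2(signal + 16), drought changed the first CAT1 probe set by −0.61 ± 0.22 in R (SE, 95% interval −1.08 to −0.15, limma adjusted p = 0.043). In S the change was −0.90 ± 0.22 (adjusted p = 0.0067). For the first SAHH probe set, R gave −0.93 ± 0.25 (adjusted p = 0.0099), and S gave −1.07 ± 0.25 (adjusted p = 0.0055). Both SAHH probe sets gave nearly the same size, the second with −0.90 ± 0.31 for R (adjusted p = 0.038) and −1.001 ± 0.31 for S (adjusted p = 0.027). The second CAT1 probe set passed in R at −1.43 ± 0.51 (adjusted p = 0.045) and did not in S, where it measured −0.25 (adjusted p = 0.78). In R, 4 of 4 probe sets were therefore called lower, where 19.8% of all tested probe sets were called lower and 33.4% were called in either direction. In S, 3 of 4 were called lower, against 13.8% lower and 27.2% in either direction. These counts are no test of enrichment, because probe sets of the same gene are not independent. The first and second SAHH probe sets correlated with Pearson's r of 0.95 over the 12 arrays. The second CAT1 probe set exceeded the control level on only 1 drought array of R. With drought arrays wholly below watered arrays, the background was 28% of probe sets in R and 22.3% in S.

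Averaged over both genotypes, the drought change was −0.76 ± 0.15 for the first CAT1 probe set (adjusted p = 0.0011, limma). It was −0.999 ± 0.176 for the first SAHH probe set (adjusted p = 0.00036) and −0.95 ± 0.22 for the second (adjusted p = 0.0029). The second CAT1 probe set measured −0.84 ± 0.36 and did not pass (adjusted p = 0.08). Of all tested probe sets, 23.7% were called lower on average and 41.4% were called in either direction. Here 3 of 4 were called lower, though probe sets of the same gene are not independent. These calls were lost under hybridization control scaling (−0.27, −0.51 and −0.46 for the first CAT1, first SAHH and second SAHH probe sets) and under poly-A control scaling (−0.50, −0.74 and −0.69), and that of CAT1 also under median scaling (−0.48).

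Set against all other changes, those of CAT1 and SAHH were ordinary in size. Of the tested probe sets, 39.4% had a lower change than the first CAT1 probe set in R and 20.4% in S. For the first SAHH probe set the shares were 29.0% and 16.9%, and for the second 30.0% and 18.3%. These places do not move when an array is rescaled by a constant on the log2 scale. All tested probe sets had a median change of −0.32 in R and −0.03 in S. Among the 611 probe sets in the brightest 1% by mean level, which include 3 of the 4, the median was −0.12 in R and −0.07 in S. Of these bright probe sets, 222 were called lower in R (36.3%) and 182 in S (29.8%), while 180 and 161 were called higher.

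The size of the drop depended on how arrays were scaled in both genotypes. The spiked hybridization controls, which are meant to read alike on all arrays, were themselves lower by 0.93 (mean log2) under drought in R and by 0.05 in S. That shift in R equals the change of the first SAHH probe set in R to 2 decimals, and its part in that change was not tested. The control means were 13.32, 12.75 and 14.11 on arrays 1 to 3 of watered R, and 12.77, 12.40 and 12.21 in R under drought. The groups overlapped only through watered R 2 and drought R 1. The highest control mean was on watered R 3, and the highest SAHH signal on watered R 1. With arrays scaled to these controls, R measured 0.32 for the first CAT1 probe set (adjusted p = 0.66, limma) and −0.00060 for the first SAHH probe set, with the direction of CAT1 turned. In S the same scaling left −0.86 for CAT1 (adjusted p = 0.23) and −1.02 for SAHH (adjusted p = 0.11), so the direction held and the calls were lost. Median scaling gave −0.11 for CAT1 and −0.43 for SAHH in R, both without a call, and kept the calls of both in S. Quantile normalization ended the call of the first CAT1 probe set in both genotypes, at −0.55 in each (adjusted p = 0.14 in R and 0.15 in S). Poly-A control scaling left −0.49 in R and −0.51 in S for CAT1 (adjusted p = 0.46 and 0.45), and −0.81 and −0.67 for SAHH (adjusted p = 0.2 and 0.31). The part of these scaling differences in the drought change was not tested. Leaving out 1 array at a time, the drop of the first SAHH probe set kept its call in each genotype, and that of the first CAT1 probe set kept it in S. In R the CAT1 call was lost without any 1 of 8 arrays (watered R 1 or 2, drought R 1 or 3, any watered S, drought S 1), over a range of −0.73 to −0.44. The R calls of the second CAT1 and second SAHH probe sets were each lost without any of several arrays as well, over −1.63 to −1.22 and −1.24 to −0.50, and that of the second SAHH probe set in S without 4 (watered S 1 or 3, drought S 1 or 3).

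**Figure D2:**
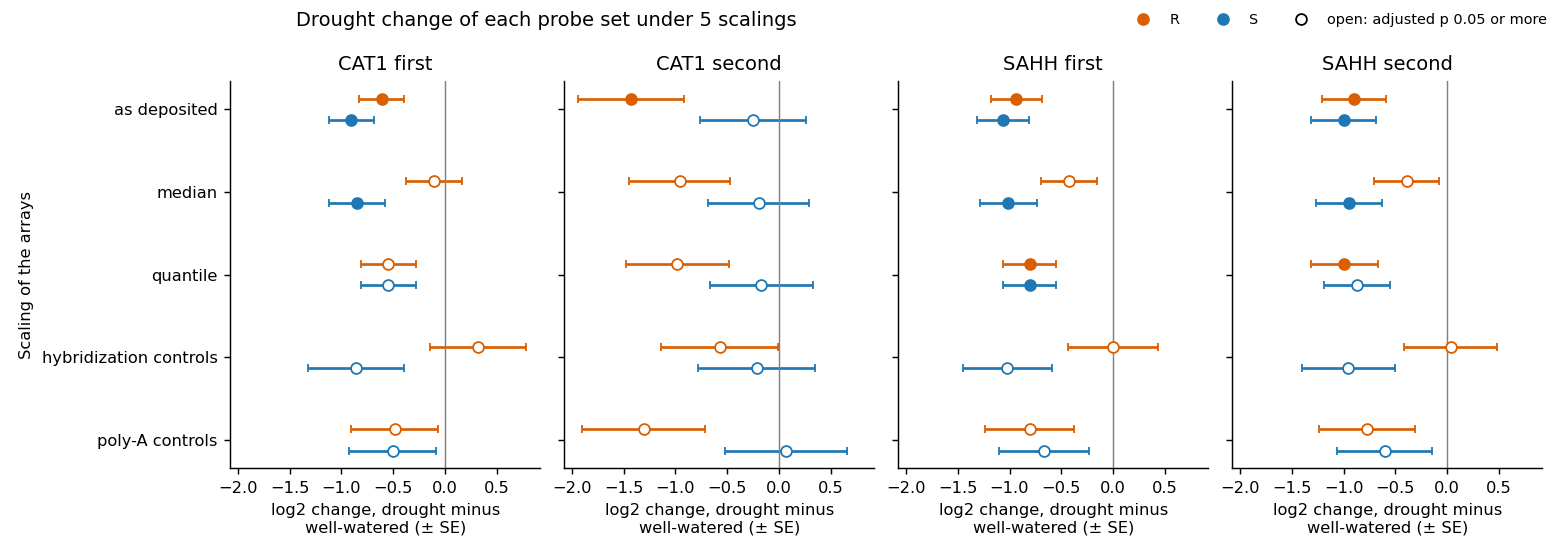
Drought change in R and S (drought minus watered, log2 scale, ± SE from limma) of the 4 probe sets with the signals as deposited and under 4 other scalings of the arrays. Filled points pass an adjusted p of 0.05 and open points do not; the R values move towards or past 0 under median and hybridization control scaling, while the S values of SAHH and of the first CAT1 probe set stay below 0 in all 5 settings.

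The rank of a probe set on its own array does not change with any scaling that keeps the order of signals. Counted from the brightest of 61115, the first CAT1 probe set ranked 144, 70 and 193 in well-watered R and 511, 193 and 167 in R under drought. In S it ranked 74, 81 and 52 with water and 178, 102 and 243 under drought. The R groups thus overlapped in rank and the S groups did not. As a percentile, its position moved by −0.213 points under drought on average (exact permutation test over 400 relabellings, two-sided, p = 0.02, adjusted over the 4 probe sets p = 0.0267). This call was lost without any 1 of 7 arrays (all but drought R 2 and 3 and the 3 of drought S), over −0.263 to −0.122 points.

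SAHH moved down in rank without overlap in both genotypes. The first probe set ranked 24, 156 and 107 in well-watered R, 372, 216 and 217 in R under drought, 115, 201 and 102 in well-watered S, and 491, 233 and 378 in S under drought. Its mean percentile was −0.328 points under drought relative to watering (exact permutation p = 0.005, the smallest that 400 relabellings can give, adjusted p = 0.01). The second probe set moved by −0.77 points with the same p, from ranks of 78 to 535 with water to 615 to 1286 under drought. No share of all probe sets with such a rank separation is given. In signal, drought arrays lay wholly below watered arrays in 28% of tested probe sets in R and 22.3% in S. On all arrays the 3 bright probe sets had percentiles of 97.9 or more. The second CAT1 probe set lay between ranks 15026 and 34821, and its drought difference of −6.96 percentile points did not pass (exact permutation adjusted p = 0.24). For genotype, no rank difference passed, with exact permutation adjusted p between 0.247 and 0.325.

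**Figure D3:**
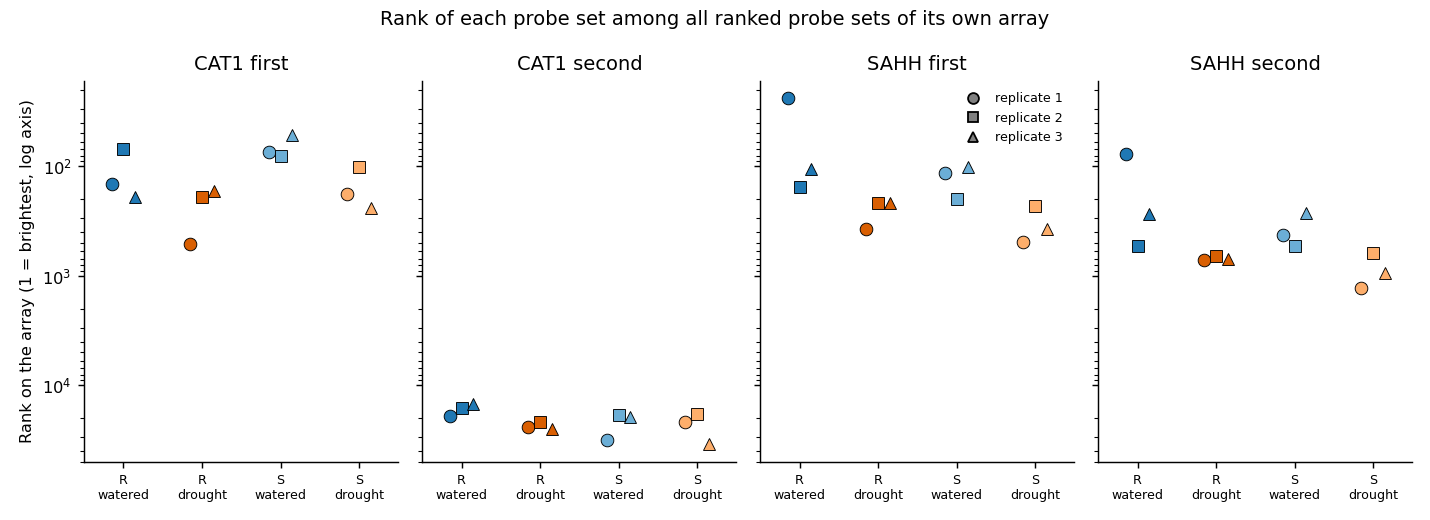
Rank of each probe set among 61115 on its own array (log axis, 1 is the brightest, at the top) by group, with symbols for replicates. SAHH ranks are lower under drought in both genotypes without overlap, whereas the first CAT1 probe set overlaps in R.

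The genotypes were compared next. Both lines were read on a wheat array and no sequence of either was used, so differences in probe match were not tested. In well-watered plants the first CAT1 probe set was lower in R by 0.71 ± 0.22 on the log2 scale, with all 3 R arrays below all 3 S arrays, and did not pass (limma adjusted p = 0.067). Without overlap, 11.7% of probe sets had R below S in watered plants, and 14.5% had S below R, as the second CAT1 probe set did at 1.03 (adjusted p = 0.27). The first and second SAHH probe sets measured 0.08 and 0.26 (adjusted p = 0.9 and 0.69). Of the 4 probe sets, limma called 0 in watered plants, with 1 at an unadjusted p under 0.05, where 7.28% of all tested were called. Under drought R minus S was −0.42 for the first CAT1 probe set (95% interval −0.89 to 0.05, adjusted p = 0.29) and 0.21 for the first SAHH probe set (−0.33 to 0.74, adjusted p = 0.7). Again limma called 0 of 4, with 0 at an unadjusted p under 0.05, against 7.48% of all tested.

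Averaged over both regimes, a contrast added after the values were seen, the first CAT1 probe set was lower in R by 0.56 ± 0.15 on the log2 scale (95% interval −0.89 to −0.23, limma adjusted p = 0.026). Of all tested probe sets, 15.3% had a lower value of this contrast, and 12.7% were called. It was the only 1 of the 4 called. The call was lost without any 1 of 6 arrays, namely watered R 1 or 3, drought R 1, watered S 1 or 2, or drought S 2, over a range of −0.65 to −0.48. It was also lost with arrays scaled to the hybridization controls (−0.41) or to the poly-A controls (−0.51), after quantile normalization (−0.36), and without the filter or the trend (−0.56). The first SAHH probe set measured 0.14 (95% interval −0.23 to 0.52, adjusted p = 0.67), the second 0.31 (adjusted p = 0.41) and the second CAT1 probe set 0.44 (adjusted p = 0.5).

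No difference between the drought responses of R and S was called for CAT1 or SAHH. The interaction, drought change in R minus that in S, was 0.29 ± 0.31 for the first CAT1 probe set (95% interval −0.37 to 0.95, limma adjusted p = 0.73) and 0.13 ± 0.35 for the first SAHH probe set (−0.62 to 0.89, adjusted p = 0.91). It was −1.18 ± 0.72 for the second CAT1 probe set (−2.73 to 0.37, adjusted p = 0.51), and 0.10 ± 0.44 for the second SAHH probe set (adjusted p = 0.95). For the second SAHH probe set the interval ran from −0.84 to 1.04. With 3 arrays a group, differences in either direction within each interval therefore remain compatible with the data. Of the 4, limma called 0, with 0 at an unadjusted p under 0.05, and 0.148% of all tested probe sets were called.

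Ratios of signals on the same array do not change when that array is scaled by a constant. They show unequal change only, since signals of different probe sets are not comparable as amounts of transcript. The ratio of the first CAT1 to the first SAHH probe set was 0.516, 1.315 and 0.718 in well-watered R, 0.826, 1.054 and 1.091 in R under drought, 1.218, 1.609 and 1.279 in well-watered S, and 1.847, 1.463 and 1.298 in S under drought. Watered and drought arrays overlapped in each genotype. The log2 ratio was higher under drought by 0.32 ± 0.41 in R and 0.16 ± 0.19 in S (SE), and the mean of 0.24 did not pass (exact permutation p = 0.315, adjusted over 22 ratios p = 0.408). No unequal response of CAT1 and SAHH to drought was therefore detected with 3 arrays a group.

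The same ratio was lower in R than in S by 0.71 on the log2 scale (exact permutation p = 0.015, adjusted p = 0.066, a comparison added after the values were seen). Under drought the genotypes did not overlap, though no share of all ratios with such a separation is given. With water they overlapped through array 2 of R, at 1.315. Leaving out 1 array at a time, the difference ranged from −0.89 to −0.56 and passed only without that array (exact permutation adjusted p = 0.0275). Since that array made the genotypes overlap, its omission widens the difference, and this pass is no support for it. Over the second SAHH probe set the CAT1 ratio gave the same direction, at −0.88 (exact permutation adjusted p = 0.0733). The 2 SAHH probe sets stayed together: their ratio, second over first, ranged from 0.400 to 0.675 over the 12 arrays. It differed by 0.05 on the log2 scale with drought (exact permutation adjusted p = 0.737) and by 0.17 with genotype (exact permutation adjusted p = 0.288). The ratio of the second to the first CAT1 probe set is not described further, because the second was below the control level on 4 of the 12 arrays, of which 2 were drought arrays of R.

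**Figure D4:**
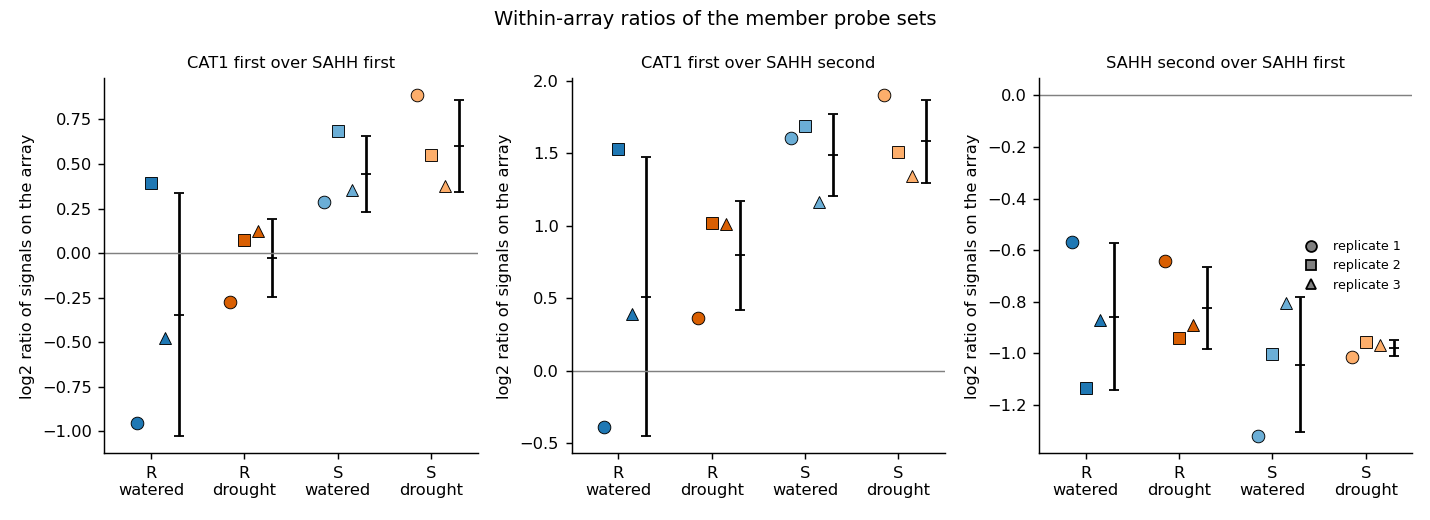
Within-array log2 ratios of the first CAT1 to each SAHH probe set and of the second to the first SAHH probe set, by group, with symbols for replicates and the mean ± SD (n = 3). The CAT1 to SAHH ratios are lower in R than in S under drought without overlap, and watered and drought arrays of a genotype overlap in all 3 panels.

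CAT1 and SAHH were then set against 9 other transcripts of each array, namely the other tested genes with a symbol and the wheat control transcripts above the control level on all arrays. Of the control transcripts, the 3' probe sets of sucrose synthase and glucose-6-phosphate dehydrogenase and the 5' probe set of ubiquitin were used. FBP and GAPN had the lowest drought changes among these partners. In log2 of the deposited signal FBP changed by −3.22 in R and −3.34 in S, and GAPN by −3.59 and −2.87. CAT1 and SAHH fell less in deposited signal, and so rose over both. The log2 ratio of the first CAT1 probe set was higher under drought by 2.52 over FBP and by 2.47 over GAPN, and that of the first SAHH probe set by 2.28 and 2.23 (all exact permutation adjusted p = 0.0122). Over petC the CAT1 ratio rose by 0.63 (exact permutation adjusted p = 0.022), a call lost without any 1 of 7 arrays (any drought R, watered S 1 or 2, drought S 1 or 2; 0.51 to 0.77, adjusted p up to 0.0917), and the SAHH ratio measured 0.39 and did not pass (exact permutation adjusted p = 0.227). Relative to FBP and GAPN both genes were thus higher under drought, by whatever constant each array is scaled.

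Over the control transcript for sucrose synthase, which cleaves or forms sucrose, the log2 ratios moved by −3.08 for CAT1 and −3.32 for SAHH, and over TBP1 by −1.23 and −1.47 (all exact permutation adjusted p = 0.0122). These partners themselves rose in log2 of the deposited signal, sucrose synthase by 2.48 in R and 2.16 in S, and TBP1 by 0.78 and 0.16. Over ubiquitin, the tag for protein breakdown, the SAHH ratio fell by 0.85 (exact permutation adjusted p = 0.0122), while the CAT1 ratio measured −0.61 (exact permutation adjusted p = 0.055). XTH, an enzyme that remodels cell walls, was below the control level on all but 3 of the 12 arrays, down to a signal of 11.8, so no ratio over it is given. Over the control transcript for glucose-6-phosphate dehydrogenase, which starts the oxidative pentose phosphate pathway, neither passed, at −0.17 for CAT1 and −0.41 for SAHH (exact permutation adjusted p = 0.519 and 0.0677). Of the 20 ratios without XTH, 10 passed for drought, whether adjusted over 22 or over 20: CAT1 rose over 3 partners and fell over 2, and SAHH rose over 2 and fell over 3. Ratios with the same numerator are not independent.

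TUBA, alpha-tubulin of the microtubules, was the partner with the smallest mean drought change of the CAT1 ratio. Its own deposited signal changed under drought by −0.71 in R and −0.76 in S on the log2 scale. A ratio that stays level therefore shows a similar change of both, not a steady CAT1 signal. CAT1 over TUBA was 2.37, 3.02 and 2.90 in well-watered R, 3.09, 2.95 and 2.80 in R under drought, 6.32, 4.34 and 5.22 in well-watered S, and 4.85, 4.40 and 4.93 in S under drought. All 6 R arrays, at 2.37 to 3.09, lay below all 6 S arrays, at 4.34 to 6.32. The regimes overlapped within each genotype, which the choice of a partner with a small change favours. No share of all probe set ratios that separate the genotypes in this way is given, for TUBA or for the other partners. The drought change of the log2 ratio was 0.10 ± 0.12 in R and −0.15 ± 0.16 in S (SE). The genotype difference was −0.81 (exact permutation p = 0.005, the smallest possible, adjusted p = 0.0367), in a comparison added after the values were seen. CAT1 over glucose-6-phosphate dehydrogenase separated the genotypes as well, at −1.05 (exact permutation adjusted p = 0.0367), with 27.1 to 50.2 in R and 59.1 to 108.3 in S. SAHH over TUBA measured −0.10 for genotype (exact permutation adjusted p = 0.67). The calls over TUBA and over glucose-6-phosphate dehydrogenase both rest on the adjustment, since leaving XTH out of the family, also decided after the values were seen, moved each to an exact permutation adjusted p of 0.05, which does not pass. Both were also lost without any 1 of watered R 1, watered S 3, drought S 1 or drought S 3, and the second without drought S 2 as well (adjusted p up to 0.0629), over −0.87 to −0.74 and −1.16 to −0.95. No other CAT1 ratio passed for genotype, and the direction depended on the partner. The difference was −0.50 over ubiquitin, −0.47 over sucrose synthase, −0.30 over FBP and −0.20 over petC. It was 0.24 over GAPN and 0.21 over TBP1 (exact permutation adjusted p of these ratios between 0.13 and 0.745).

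**Figure D5:**
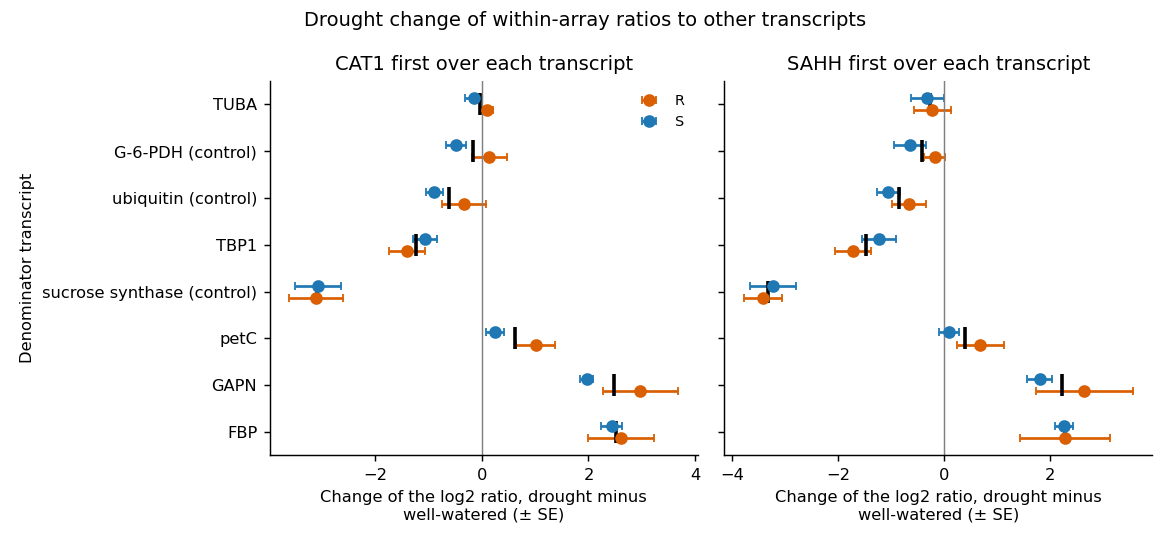
Change of the log2 ratio of the first CAT1 and first SAHH probe sets to each of 8 other transcripts on the same array, drought minus watered, in R and S (points ± SE) with the mean of both as a black bar. Both genes rise over FBP and GAPN and fall over sucrose synthase and TBP1 in both genotypes, and the CAT1 ratio to TUBA lies near 0 in each.

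Probe sets with the most similar pattern over the 12 arrays were sought among 14598 that exceeded the control level on every array, 561 of them annotated with 1 gene. For the first CAT1 probe set the 5 most alike annotated genes were LOC543061 (Pearson's r of 0.966), LOC542965 (0.956), LOC606324 (0.952), LOC543056 (0.939) and LOC543073 (0.936). Since they were chosen for this likeness, their changes are descriptions. LOC606324 had a steeper drought change than CAT1, at −2.02 on the log2 scale in R and −2.62 in S. For the first SAHH probe set the most alike annotated probe set was its own second, at 0.95, in place 6 of all. Next came LOC780626 (0.945), LOC100037561 (0.922), LOC543248 (0.921) and LOC543076 (0.920). LOC780626 changed by −2.07 in R and −2.06 in S, and LOC543248 by −2.44 and −2.30.

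CAT1 and SAHH were not close to each other in this order. Their first probe sets correlated with r of 0.59, which put SAHH in place 4197 for CAT1 and CAT1 in place 3879 for SAHH. After the group means were subtracted their r was 0.017. The median r of all 14598 probe sets was 0.039 with CAT1 and 0.026 with SAHH. Since these values share arrays and group structure, they are descriptions with no test.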

How the data were processed

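RNA of 12 samples was labelled with biotin and read on a wheat array, 1 array per sample; groups and replicate numbers came from the sample titles. The deposited values are signal intensities that, per the submitters' processing notes, the authors made with MAS5. The sources used here give neither its version nor its scaling target. The mean without the top and bottom 2% was 500.3 on each array. Probe sets named AFFX (111) or RPTR (64) were left out. From the deposited intensities, log2(signal + 16) was computed; this understates changes of dim probe sets. Tests covered the 38398 probe sets that exceeded the array median on 3 or more arrays. limma 3.58.1 (R 4.3.3, eBayes with trend) fitted 4 group means over the 12 arrays, with Benjamini-Hochberg adjustment over all tested probe sets of a contrast and a threshold of 0.05. The fit was tested on simulated data.

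Within-array ratios of 22 pairs used signals without a pseudocount and, like ranks, two-sided exact permutation tests. Within 1 genotype, 3 arrays against 3 allow no p below 0.1, so both genotypes were relabelled together. Left out as partners were 5 wheat control transcripts not above the control level on all arrays. Mean genotype contrasts were added after the values were seen. The control level of 129 came from 23 probe sets that target no wheat transcript. The text names both genes whatever their result, all other tested genes with a symbol as ratio partners, and the 5 most correlated annotated probe sets. Both genes and the lists were chosen with earlier results of these data known. Gene names come from an annotation of 2007 that names 1273 probe sets; no sequence or coordinates are given. Alternatives were other pseudocounts, scalings, filters, variance models, array weights, a fit to the compared groups, a replicate block and leaving out each array. Ratios, ranks and figures used Python 3.11.15 and matplotlib 3.10.9. The number of arrays limits the precision.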

Additional observations from a re-analysis of the deposited data

How the results depend on the processing

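Values are log2 changes in the order first CAT1, second CAT1, first SAHH and second SAHH where 4 are given, and the cause was not tested where a call was lost. The drought calls in R did not pass under median scaling (−0.11, −0.96, −0.43, −0.39), hybridization control scaling (0.32, −0.57, −0.00060, 0.034; the first CAT1 and second SAHH probe sets turned direction) or poly-A control scaling (−0.49, −1.31, −0.81, −0.77). With quantile normalization both CAT1 probe sets did not pass in R (−0.55, −0.98). Calls in R also ended, with equal or similar values, for the first CAT1 probe set without a filter, without a trend or with only the groups compared (−0.61) and with array weights (−0.53), for the second CAT1 probe set with a pseudocount of 1 (−1.54), without a filter or trend (−1.43) and with array weights (−1.30), and for the second SAHH probe set without a trend or with only the groups compared (−0.90). In S, calls ended under quantile normalization (first CAT1 −0.55, second SAHH −0.87), under hybridization control scaling (first CAT1 −0.86, SAHH −1.02 and −0.96), under poly-A control scaling (first CAT1 −0.51, SAHH −0.67 and −0.60) and, for the second SAHH probe set, without a trend (−1.001); the second CAT1 probe set turned to 0.069 under poly-A control scaling. The mean drought change did not pass for the first CAT1 probe set under median scaling (−0.48), nor for it and both SAHH probe sets under hybridization control (−0.27, −0.51, −0.46) and poly-A control scaling (−0.50, −0.74, −0.69). Watered R minus S of the first CAT1 probe set passed under median scaling (−1.002, limma adjusted p = 0.035); SAHH turned direction, without a call, under median (−0.22, −0.030) and hybridization control scaling (−0.21, −0.024). Under drought, R minus S turned for the first CAT1 probe set under hybridization control scaling (0.18) and for the second under quantile normalization (0.034), hybridization control scaling (0.39) and array weights (0.17). Interactions turned under quantile normalization (first CAT1 −0.00093, SAHH −0.0016 and −0.12) and poly-A control scaling (SAHH −0.14 and −0.17). The mean genotype difference of the first CAT1 probe set did not pass under quantile normalization (−0.36), hybridization control (−0.41) or poly-A control scaling (−0.51), nor without a filter or trend (−0.56).

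Counts of probe sets called, 12824 and 10461 for drought in R and S, were 8520 in R under poly-A control and 6584 in S under hybridization control scaling. For R minus S they were 1637 and 1797 with water under hybridization and poly-A control scaling, against 2797, and 1752 under drought with poly-A control scaling, against 2873. The mean genotype count of 4865 became 3017 with poly-A control scaling. The 57 interaction calls became 171 with a pseudocount of 64, 162 with median scaling, 126 with hybridization control scaling, 87 with array weights and 18 without a trend.

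Leaving out 1 array at a time, the counts ranged from 17 to 104 for the interaction, 1546 to 3107 for watered R minus S and 1720 to 3063 under drought. Ranges in which a call was lost were −0.73 to −0.44 (first CAT1), −1.63 to −1.22 (second CAT1) and −1.24 to −0.50 (second SAHH) for drought in R, −1.17 to −0.82 for the second SAHH probe set in S, −0.65 to −0.48 for the mean genotype difference of the first CAT1 probe set, and −0.263 to −0.122 percentile points for its rank. Ratio calls were also lost, for CAT1 over petC with drought (0.51 to 0.77) and for CAT1 over TUBA (−0.87 to −0.74) and over glucose-6-phosphate dehydrogenase (−1.16 to −0.95) with genotype; these 2 genotype calls were also lost without XTH as a partner. A call was gained within −1.07 to −0.58 (second CAT1, mean drought, without watered S 1 or drought S 2), −0.87 to −0.60 (first CAT1, watered R minus S, without watered R 2 or drought R 1), and for the genotype ratio of CAT1 over the first (−0.89 to −0.56) and second SAHH probe set (−1.13 to −0.65), both without watered R 2. Direction turned, without a call, within −0.71 to 0.26 (second CAT1, drought in S), −0.65 to 0.26 (second CAT1, R minus S under drought), −0.18 to 0.28 and −0.14 to 0.61 (SAHH, watered R minus S), and −0.074 to 0.39 and −0.24 to 0.50 (SAHH, interaction). The same held for drought changes of the ratios of CAT1 over the second SAHH probe set (−0.033 to 0.45), second over first SAHH (−0.020 to 0.12), second over first CAT1 (−0.44 to 0.077) and CAT1 over TUBA (−0.092 to 0.044), and for genotype changes of CAT1 over GAPN (−0.094 to 0.51) and SAHH over TUBA (−0.23 to 0.053).

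Replicate numbers did not pair the samples: same-numbered arrays of different groups had residuals correlated between −0.126 and 0.181 (18 pairs, 1 over 0.1). With the replicate block the first SAHH probe set measured −0.93 in R, and no limma call of the 4 probe sets changed. The sign-flip test of the ratios with that block passed none of the 22, for drought or genotype, with adjusted p of 0.0764 or more; its few sign flips could hardly pass the adjustment.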
